A study of Mus musculus with 90 samples.

Results

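Trimethylation of histone H3 at lysine 9 (H3K9me3) was mapped by ChIP-seq in mouse embryonic stem cells (ESCs), and the peaks described here are those that sat at the starts of protein-coding genes in cells with Dnmt1 knocked down and in cells with Dnmt1 restored. A peak of the pooled TKOL list was taken as a member when it reached into the 1 kb on either side of a coding gene's first base and also overlapped a peak of the pooled DKO0 list. The members were thus selected on the 2 pooled H3K9me3 lists, which give those values as a description. Of 104618 pooled TKOL peaks, 67442 overlapped a DKO0 peak, and 597 of these were members. They lay in the promoter windows of 478 coding genes, which is 2.14% of the 22380 coding genes of the GENCODE vM1 annotation (mouse build mm9). The other 66845 peaks shared by both lines served as the comparison.

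TKOL cells were a clonal line of J1 ESCs with Dnmt3a and Dnmt3b knocked out, in which an shRNA lowered Dnmt1. DKO0 cells were derived from them by Cre excision of the shRNA, so they share the Dnmt3a and Dnmt3b loss and differ in Dnmt1. Wild-type (WT) cells were of another line, V6.5, so genotype and line cannot be told apart in any comparison with WT. H3K9me3 and Trim28 were precipitated from untagged cells, whereas Uhrf1 was precipitated through a 3xFLAG tag on both alleles in cloned lines. Uhrf1 was mapped by ChIPmentation, in which Tn5 transposase acts on the chromatin held on the beads, and H3K9me3 and Trim28 by ChIP-seq. Each mark and line had 2 replicates. The labels do not say whether these were separate cultures, so p-values measure only the spread between these lists. ESCs were grown on a feeder layer of mouse embryonic fibroblasts. The labels do not give the passage of the DKO0 cells, but the names of the deposited lists give passage 5 for H3K9me3 and Trim28 and passage 3 for Uhrf1. Mark and passage thus differ together in DKO0.

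H3K9me3 is a mark of heterochromatin. In ESCs much of it is placed on endogenous retroviruses by the methyltransferase Setdb1, which is brought there by Trim28 (Kap1), a co-repressor bound by Krüppel-associated box zinc finger proteins (KRAB-ZFPs) that read the DNA sequence. Uhrf1 reads H3K9me3 together with hemimethylated CpGs and recruits Dnmt1. Intracisternal A-particles (IAPs) are long terminal repeat (LTR) retrotransposons that keep H3K9me3 and DNA methylation in early development. Promoters of most active coding genes, many of them CpG islands, are free of H3K9me3.

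Sequences next to the gene starts of some of the strongest members are printed here. Strength here means the fold enrichment of H3K9me3 in the pooled lists. Members were ranked by the smaller of their TKOL and DKO0 values. The ranking took in members that also had Trim28 and Uhrf1 in both lines and H3K9me3 in both V6.5 replicates. Of the first 10, the 300 bases of the peak nearest the gene start (mm9) are printed for 4, in the direction of the gene. These 4 were not picked by rank. Capitals mark runs of at least 20 bases that recur, on either strand, in another of the 10 windows. The first is chr16:89168987-89169286 (plus strand), which ends 449 bases before Gm7735. The second is chr11:116653556-116653855 (plus strand), which ends 493 bases before Gm17558. The third is chr17:36150232-36150531 (plus strand), which contains the first base of Gm17579 and coding sequence of it. The last is chr2:86187597-86187896 (minus strand), which begins 25 bases into the coding exon of Olfr1055.
Gm7735: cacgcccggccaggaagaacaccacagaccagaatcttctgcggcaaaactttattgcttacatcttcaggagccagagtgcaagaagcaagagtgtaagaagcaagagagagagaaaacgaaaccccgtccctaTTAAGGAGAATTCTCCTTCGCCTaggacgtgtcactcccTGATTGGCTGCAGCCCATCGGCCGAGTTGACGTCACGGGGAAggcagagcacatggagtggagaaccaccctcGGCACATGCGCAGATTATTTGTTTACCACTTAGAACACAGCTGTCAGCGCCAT
Gm17558: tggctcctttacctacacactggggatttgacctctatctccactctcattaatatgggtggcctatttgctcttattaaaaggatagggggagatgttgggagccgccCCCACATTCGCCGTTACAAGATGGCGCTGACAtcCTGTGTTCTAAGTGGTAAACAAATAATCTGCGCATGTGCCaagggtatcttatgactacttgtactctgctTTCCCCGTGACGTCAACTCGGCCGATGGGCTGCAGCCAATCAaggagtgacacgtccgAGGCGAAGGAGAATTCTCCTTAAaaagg
Gm17579: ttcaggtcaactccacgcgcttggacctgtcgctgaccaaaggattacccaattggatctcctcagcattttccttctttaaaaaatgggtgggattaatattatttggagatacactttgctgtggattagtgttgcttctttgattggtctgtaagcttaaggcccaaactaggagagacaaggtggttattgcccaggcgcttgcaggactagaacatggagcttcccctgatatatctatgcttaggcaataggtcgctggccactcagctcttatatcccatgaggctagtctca
Olfr1055: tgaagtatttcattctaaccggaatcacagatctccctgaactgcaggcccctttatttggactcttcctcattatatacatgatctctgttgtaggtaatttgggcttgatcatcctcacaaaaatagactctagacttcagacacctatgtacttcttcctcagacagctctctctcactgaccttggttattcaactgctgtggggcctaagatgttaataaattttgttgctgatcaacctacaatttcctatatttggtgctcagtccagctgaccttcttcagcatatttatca

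The first pair of windows lie on different chromosomes, and 118 bases of the Gm7735 window and 137 of the Gm17558 window recurred in another of the 10. Words of 31 bases were counted over the whole genome on both strands, and a word with at least 10 copies was called multi-copy. In the Gm7735 window 91.9% of words were multi-copy, with a median of 776 copies, and in the Gm17558 window 100% were, with a median of 709 copies. The Gm17579 window was also wholly multi-copy, with a median of 1220 copies, so the annotated first base of this gene model lay inside the repeat. The Olfr1055 window held no multi-copy word although the peak around it did at 86.1% of words, so this peak reached from the repeat into single-copy receptor sequence.

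In the pooled lists most members were narrow with a low fold enrichment, and a minority were wide with a high one. Fold enrichment is the peak's signal over the background estimated by the peak caller MACS2, and the DKO0 value of a member is that of the strongest DKO0 peak overlapping it, which can be wider. Median width was 551 bp with quartiles of 280 and 1248 bp, against 452 bp with quartiles of 238 and 985 bp in the other shared peaks. Median fold enrichment was 3.04 in TKOL and 3.07 in DKO0, against 3.10 and 3.01 in the other shared peaks. By width, 278 members were at most 500 bp, 126 were 500 to 1000 bp, 82 were 1000 to 2000 bp, 64 were 2000 to 5000 bp and 47 were wider than 5000 bp. The widest class made up 7.87% of members and 3.43% of other shared peaks. A wider peak is more likely to reach into a promoter window, so the rule itself favours width. Its part in these width differences was not tested. A fold enrichment of at least 6 in TKOL was found in 40 members, and 37 of these were wider than 2000 bp. The other 3 were narrow peaks, named after their values were seen, which lay at Rps29, a ribosomal protein gene (280 bp, 11.5), Parp2, a DNA repair enzyme gene (308 bp, 9.07), and Phf21a, a reader of unmethylated H3K4 (188 bp, 6.88). All 3 had Trim28 and Uhrf1 in the pooled DKO0 lists and H3K9me3 in both V6.5 lists.

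**Figure D1:**
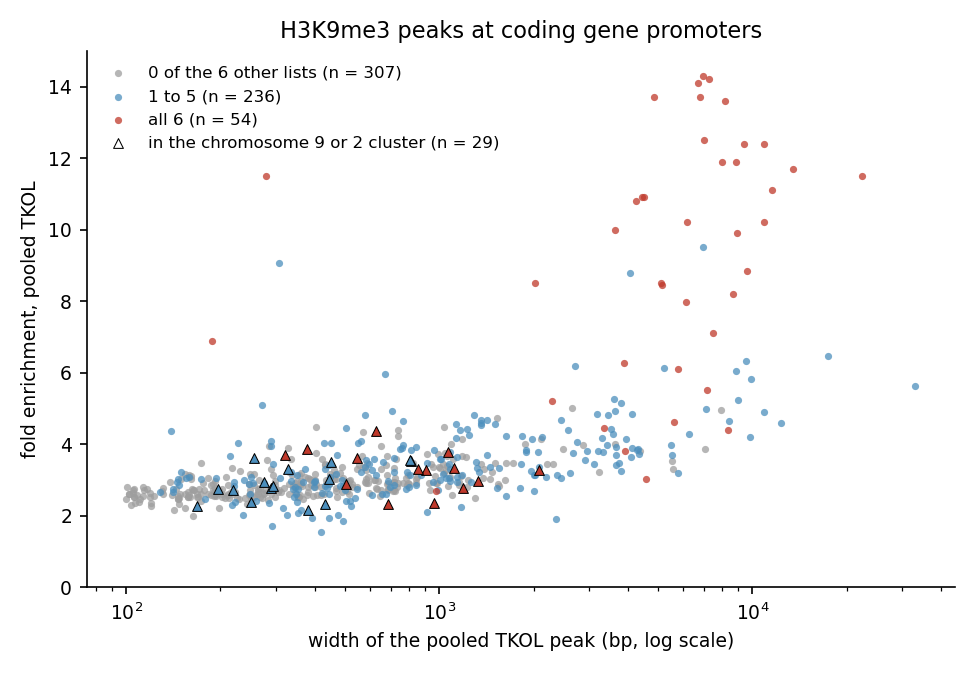
Each point is 1 of the 597 members, with the width of its TKOL peak (bp, log scale) against its fold enrichment in the pooled TKOL list. Colours give how many of 6 other lists overlap it (pooled Trim28 and Uhrf1 lists of TKOL and DKO0, and both V6.5 H3K9me3 lists), and triangles mark the 29 members of the chromosome 9 and 2 clusters. Members in all 6 lists reach a fold enrichment of 14.3, whereas those in none stay at or below 5.01.

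Position within the window was uneven. At the first base itself 0.567% of coding genes lay in a member, against 0.943% at 1000 bases upstream and 0.715% at 1000 bases downstream. Members covered the first base of 127 genes. Of the 597 peaks, 266 lay wholly upstream of the nearest gene start, 207 wholly downstream and 124 across it. Only 270 lay entirely inside promoter windows, and in the members wider than 5000 bp the median share of the peak inside such a window was 8.05%. A window spans 1 kb on either side of a start, so a peak wider than 5000 bp must lie mostly outside any single window.

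**Figure D2:**
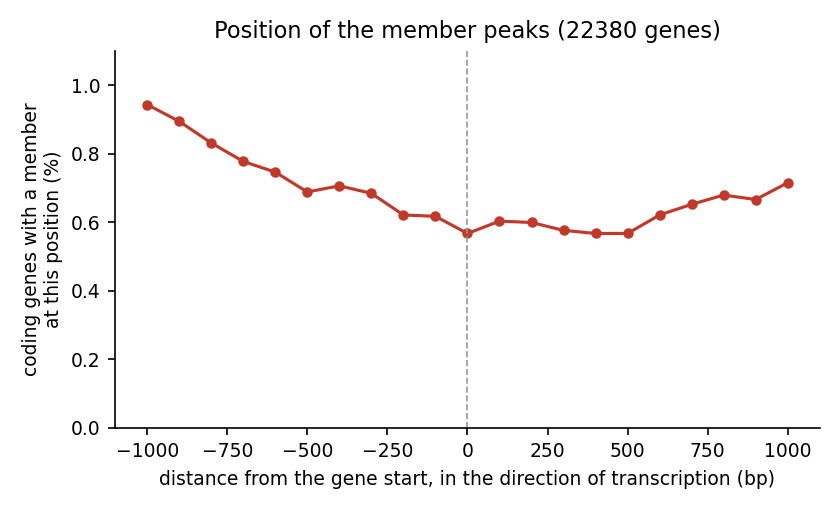
The share of the 22380 coding genes (%) that lie in a member is plotted by distance from the gene start (bp, negative values upstream). The curve falls from 0.943% at the upstream limit to 0.567% at the start and rises to 0.715% at the downstream limit.

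At the window limit, the outermost members were the peak 1000 bases before H1fnt, a testis linker histone, with a fold enrichment of 2.87 in TKOL and 2.49 in DKO0, and the peak 999 bases inside Cep57l1, with 3.04 and 5.05. The nearest shared peaks that were left out lay 1001 bases from Zfp125, which had another peak among the members, with 3.21 and 3.84, and 1001 bases from Rnf168, a ubiquitin ligase of the DNA damage response, with 4.13 and 4.65.

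The 10 members with the highest fold enrichment in TKOL were at Gm7735, Gm10991, Catsper3, Gm17555, Gm17558, Chrac1, Gm17579, Prpf39, Ttll4 and Olfr1055. Their TKOL values ran from 14.3 down to 11.9. The peak at Gm7735 was 6950 bp wide with a fold enrichment of 14.3 in TKOL and 12.9 in DKO0. The peak at Catsper3, a subunit of the sperm calcium channel, was 6726 bp wide and covered the gene start, with 14.1 and 11.3. The peak at Chrac1, a histone-fold subunit of a chromatin remodelling complex, ended 885 bases before the gene, with 13.6 and 11.6. The peak at Prpf39, a splicing factor of the U1 particle, was 10865 bp wide and covered the start, with 12.4 and 9.83. The peak at Ttll4, a tubulin glutamylase, ended 251 bases before the gene, with 12.4 and 10.8. All 10 held IAP sequence by the match described below, and all 10 were found in both V6.5 H3K9me3 lists and in all 6 Trim28 replicate lists. From 67.3% to 98.5% of their words were multi-copy. The paper states that short reads from repeats can align to several loci, so reads cannot be placed on these single peaks with certainty.

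The lists of single replicates were called separately from the pooled ones, and at all 10 most enriched members their H3K9me3 values were lower. These ran from 1.85 to 3.95 in the TKOL and DKO0 replicates. Dpep3, with pooled values of 2.82 and 3.69, lay in the same range, at 3.12 in TKOL replicate 1 and 3.44 in DKO0 replicate 1. It had no peak in the other replicates of these lines. The ranking by fold enrichment thus holds for the pooled lists. At Gm7735 the H3K9me3 fold enrichment was 2.64 and 3.25 in the TKOL replicates, 2.85 and 3.09 in the DKO0 replicates and 2.53 and 3.05 in the V6.5 replicates. The 3 lines overlapped there. Trim28 at Gm7735 had a fold enrichment of 4.73 and 4.00 in V6.5, 4.04 and 5.82 in TKOL and 5.99 and 6.53 in DKO0. Uhrf1 peaks at Gm7735 were listed in both V6.5 replicates, at 3.79 and 3.84, and in 1 replicate each of TKOL, at 3.33, and DKO0, at 3.48. The remaining Uhrf1 replicates listed no peak there.

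The 10 widest members differed more among themselves. Fat1, which encodes an atypical cadherin, had the widest, 33119 bp, with a fold enrichment of 5.63 in TKOL and 5.81 in DKO0. Only 3.03% of its words were multi-copy, and neither V6.5 list had a peak in it. Trim28 was found there in the pooled DKO0 list and in 1 of 6 replicate lists, and Uhrf1 in both pooled lists and in 4 of 6 replicate lists. Tceb2, which encodes the transcription factor subunit elongin B, had a peak of 17491 bp with 0.848% of words multi-copy. It was in 1 V6.5 list, in all 4 pooled Trim28 and Uhrf1 lists, in 2 of 6 Trim28 replicate lists and in 3 of 6 Uhrf1 replicate lists.

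By contrast, 6030452D12Rik had a peak of 22448 bp with 80.7% of words multi-copy, and it lay in both V6.5 lists and in all 12 Trim28 and Uhrf1 replicate lists. Nol7, a nucleolar protein gene, had a peak of 13467 bp that was likewise in all of these lists. Psmg4, which encodes a proteasome assembly chaperone, had 11526 bp, and Ept1, which encodes an enzyme of phosphatidylethanolamine synthesis, had 10915 bp shared with Gm5299. Zfp445, a KRAB-ZFP gene whose product acts at imprinting control regions, had 10915 bp across its start, with fold enrichments of 4.91 and 5.06. Of its words 6.38% were multi-copy, and it was in both pooled Trim28 lists and in no Trim28 or Uhrf1 replicate list. Of the 10 widest members, 5 lay in all 6 other lists and 6 held IAP sequence.

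Multi-copy DNA was less common in members than in other shared peaks and more common than in promoters at large. The median member had 16.5% multi-copy words, the median other shared peak 80.6% and the median coding promoter window 0.254%. At least 50% of words were multi-copy in 198 members (33.2%), in 62.9% of other shared peaks and in 2.14% of coding promoter windows. The 478 member promoters had a median of 6.65%, against 0.254% in the other coding promoters. The word count depends on the assembly and does not name the repeat.

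**Figure D3:**
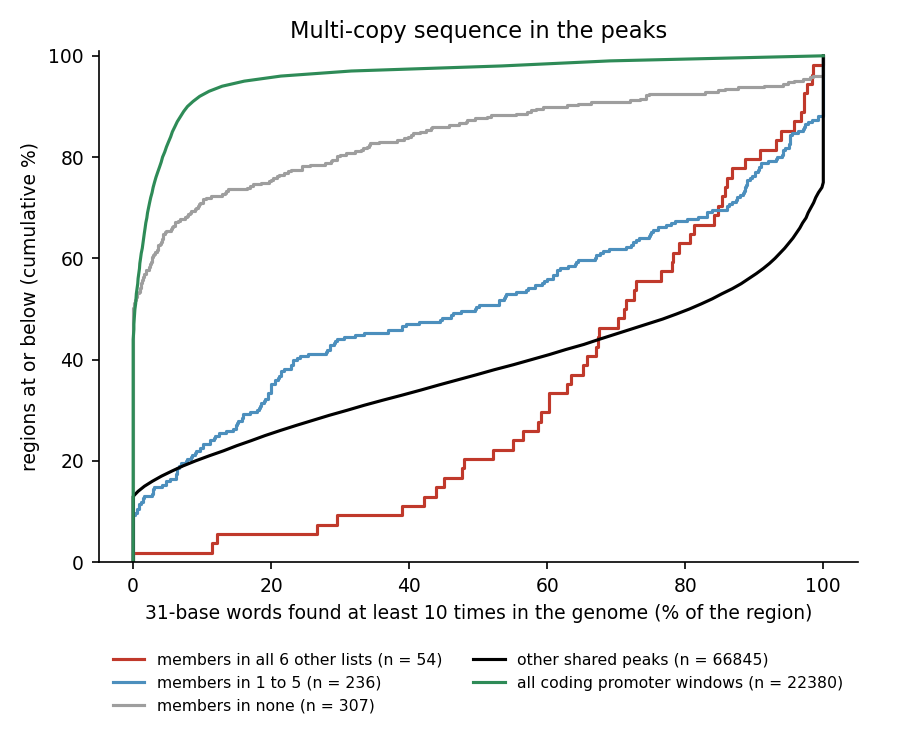
Cumulative share of regions (%) by the share of their 31-base words that have at least 10 copies in mm9. Members in all 6 other lists have a median of 71.2%, those in 1 to 5 lists 49.6% and those in none 0%, against 80.6% in other shared peaks and 0.254% in coding promoter windows.

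IAP sequence was looked for with the genomic parts of the 2 hairpin bisulfite amplicons that the study named IAPez and IAP, 177 and 113 bases long. A region was counted when blastn aligned at least 80% of an amplicon at 80% identity or more. Of the 597 members 38 (6.37%) held the IAP amplicon, and 6 of these also held the IAPez amplicon. Of other shared peaks 4.83% held either one, and the shares were not compared at equal width. Among all 22380 coding promoter windows 19 held a match, and 18 of these were member promoters. The 38 members had a median width of 6884 bp and median fold enrichments of 10.1 in TKOL and 9.04 in DKO0, against 504 bp, 2.99 and 2.96 in the 559 members without a match. The match tests 2 short stretches of 1 retrotransposon family, so other repeats were not counted.

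Base composition of the member promoters differed from that of the others. The observed over expected CpG ratio had a median of 0.340 in the 478 member promoters and 0.470 in the others, and GC content had medians of 47.4% and 51.2%. A member was found at 2.36% of the 5039 promoters with a CpG ratio below 0.2 and at 2.95% of the 4772 between 0.2 and 0.4. The share was 1.99% between 0.4 and 0.6, 1.59% between 0.6 and 0.8, and 1.47% of the 1832 at 0.8 or more. Members thus occurred in every CpG class.

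Motifs were searched on both strands of the promoter windows as exact letters. None of the 3 is the same word as another on either strand, although their sites can share bases. The Zfp57 hexamer TGCCGC was in 35.1% of member promoters and 43.4% of all coding promoters. The E-box CACGTG was in 28.7% and 27.8%, and the E2F-type hexamer TCCCGC in 36.6% and 55.3%. All 3 motifs hold a CpG. TGCCGC and TCCCGC were less frequent in the member promoters, whose CpG ratio was also lower, and CACGTG was not. The part of base composition in this was not tested.

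Among gene families, predicted gene models stood out by number. Models with a name of the form Gm and a number accounted for 175 of the 478 genes, which is 8.63% of the 2028 such models, whereas the 20352 coding genes with other names had a member in 1.49%. Their 245 member peaks made up 41.0% of all members, and in 129 of them at least 50% of words were multi-copy. All 6 other lists overlapped 30 of the 245 and none overlapped 91. Models with a Rik name had a member in 28 of 1445 (1.94%), close to the share of all coding genes.

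A dense group of the Gm models sat in 2 clusters of repeated DNA. At chr9:3000248-3038276, a stretch of 38.0 kb, all 12 coding gene models (Gm10106, Gm10715 to Gm10722, Gm11167, Gm11168 and Gm17535) had members, 27 peaks in all. At chr2:98502397-98507476 Gm10800 and Gm10801 had 1 each. These 29 peaks were named after their values were seen. Their -log10 q-values in TKOL ran from 107 to 8121, whereas the highest value of any other member was 132. Their fold enrichments were modest, from 2.16 to 4.38 in TKOL and from 1.40 to 3.22 in DKO0. In 26 of the 29 at least 50% of words were multi-copy, and none held IAP sequence. Both peaks on chromosome 2 were exceptions, with 12.1% at Gm10801 and 26.7% at Gm10800 and a median of 2 copies per word. All 29 were overlapped by both pooled Trim28 lists, and 27 by each V6.5 H3K9me3 list. The pooled Uhrf1 lists overlapped 18 in TKOL and 14 in DKO0. The lists do not give the number of reads behind any of these peaks. Whether these overlaps reflect the marks themselves at these loci was not tested.

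Genes named Zfp encode zinc finger proteins and include many KRAB-ZFPs. A member was found at 20 of 371 (5.39%). Their 23 peaks had a median width of 585 bp and a median fold enrichment of 3.21 in TKOL. Zfp575 shared a peak of 9613 bp with Ethe1, a mitochondrial sulfur dioxygenase gene, with fold enrichments of 8.84 and 8.51, and this peak lay in all 6 other lists. Zfp553 and Zfp771 shared a peak of 9875 bp with 5.83 and 7.49, which was in no V6.5 list. Zfp236 had 4.99 and 4.93. Zfp809, whose product recognizes the primer binding site of retroviruses, was named after its value was seen, and had a narrow peak of 585 bp with 3.56 and 3.51. It was in the pooled DKO0 list and 1 of 6 replicate lists of Trim28, and in no Uhrf1 list. Of the 23 peaks, 8 were in none of the 6 other lists.

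Major urinary protein genes encode carriers of pheromones and lie in tandem copies on chromosome 4. A member was found at 5 of 21 (23.8%), which are Mup9, Mup10, Mup12, Mup15 and Mup17. Their 6 peaks were 146 to 372 bp wide, with TKOL fold enrichments of 2.39 to 3.34, and from 73.3% to 100% of their words were multi-copy. None was in a V6.5 list, and 4 of 6 were in none of the 6 other lists. Since the Mup genes are near-identical copies, reads cannot be placed on single genes with certainty.

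Chemoreceptor genes, which are large families of tandem copies, had a member at 13 of 1113 odorant receptor genes (1.17%), 4 of 203 Vmn1r genes (1.97%) and 3 of 119 Vmn2r genes (2.52%). Olfr1055 was the strongest of these, with a peak of 7977 bp and fold enrichments of 11.9 and 11.4. Olfr1388 had 8385 bp, 4.40 and 5.19, and both lay in all 6 other lists. Olfr1257 had 4.39 and 3.94 and was in both V6.5 lists and the pooled DKO0 Trim28 list, but in no Trim28 or Uhrf1 replicate list. Vmn1r48 had 5223 bp with 6.12 and 5.35.

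Metabolic families lay on either side of the 2.14% of all coding genes. Cytochrome P450 genes had 4 of 98 (4.08%), namely Cyp2c40, Cyp2c69, Cyp2d12 and Cyp2t4, and the 2 peaks at Cyp2c40 had TKOL fold enrichments of 3.23 and 3.10. Solute carriers had 5 of 355 (1.41%), of which Slc25a38, a mitochondrial glycine carrier, had the highest TKOL value, 3.45. Beta-defensin genes, which encode antimicrobial peptides, had 1 of 41 (2.44%), Defb35, with 2.84 and 3.20.

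In the short lists of imprinted genes, germline genes and genes for H3K9 and DNA methylation, members were found at 1 or 2 genes each. The 2.14% of all coding genes would give less than 1 gene in each of these lists. Shares above 2.14% thus do not set them apart. Of 41 imprinted genes Igf2, the paternally expressed growth factor, had a member (2.44%), with a peak of 737 bp that ended 668 bases upstream. Its fold enrichment was 2.91 in TKOL and 3.68 in DKO0, it was in 1 of 4 H3K9me3 replicate lists of these lines, and no V6.5, Trim28 or Uhrf1 list had a peak there. Of 38 germline genes 2 did (5.26%), Dpep3, a testis dipeptidase, with 2.82 and 3.69, and Sycp1, a synaptonemal complex protein, with 2 narrow peaks of 2.64 and 2.52 in TKOL. Of 25 genes for H3K9 and DNA methylation, only Atf7ip did (4.00%). It encodes a partner of Setdb1, and its peak of 5527 bp covered the start with 3.69 and 4.84, with 0.509% of words multi-copy.

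No member was found at the 24 clustered protocadherin genes, 68 histone genes, 30 Rhox genes, 22 MAGE genes, 46 keratin associated protein genes, 11 Skint genes or 60 serpin genes. The same held for 19 genes of the 2-cell embryo, 20 pluripotency genes and 14 housekeeping genes. Several of these lists are short, so that the 2.14% of all coding genes would give less than 1 gene in them.

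**Figure D4:**
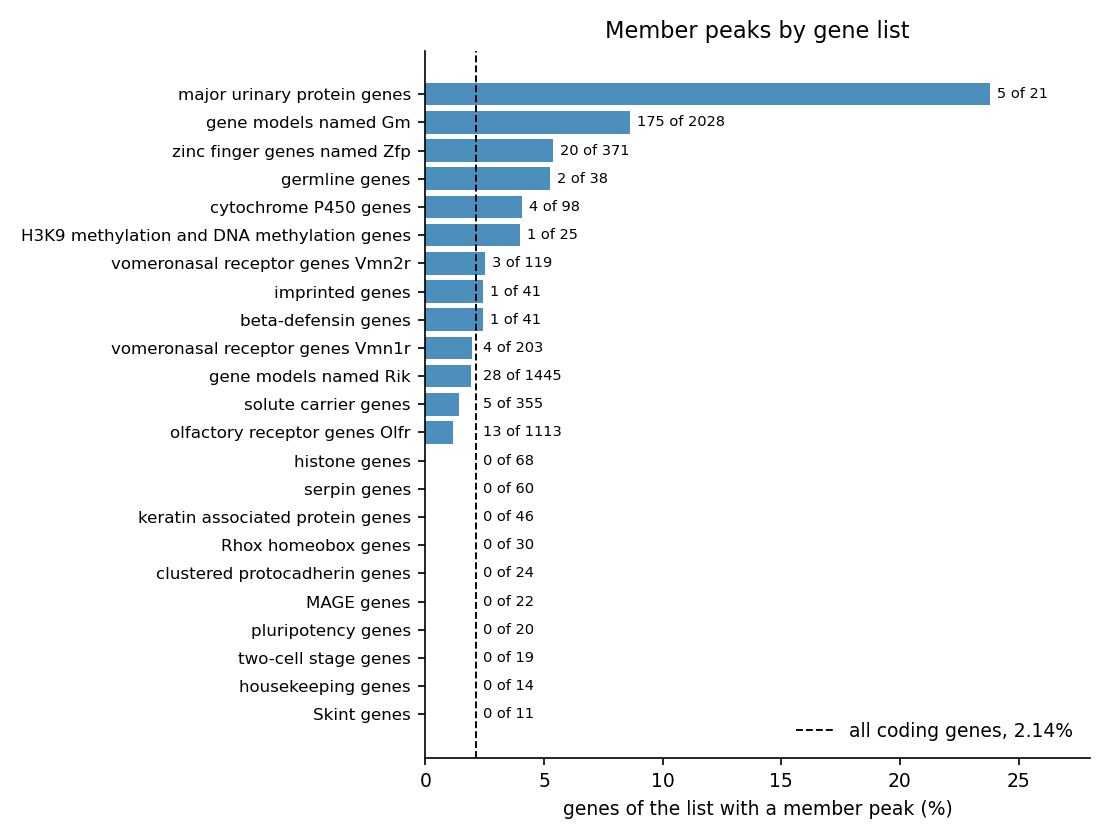
Bars give the share of each gene list (%) whose promoter window holds a member, with the counts beside them, and the dashed line gives the 2.14% of all coding genes. Above the line lie Mup genes (5 of 21), Gm models (175 of 2028), Zfp genes (20 of 371), germline (2 of 38), cytochrome P450 (4 of 98) and methylation genes (1 of 25), and closer to it Vmn2r (3 of 119), imprinted and beta-defensin genes (1 of 41 each), and 10 lists have no member.

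The question of the remaining comparisons was whether Trim28 and Uhrf1, which were not used to choose the members, and the H3K9me3 of V6.5 cells lay at the same promoters. In the pooled lists Trim28 overlapped 212 members in TKOL (35.5%, 95% Wilson interval 31.8 to 39.4) and 144 in DKO0 (24.1%, 20.9 to 27.7). The background in other shared peaks was 37.3% in TKOL and 34.3% in DKO0. Uhrf1 overlapped 122 members in TKOL (20.4%, 17.4 to 23.9) and 119 in DKO0 (19.9%, 16.9 to 23.3), against 12.5% and 10.8% of other shared peaks. V6.5 H3K9me3 overlapped 158 members in replicate 1 (26.5%) and 154 in replicate 2 (25.8%), against 23.9% and 22.3%. The intervals cover the number of peaks only, and peaks next to each other are not independent.

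These lists met at a small set of members. All 6 lists, which are the pooled Trim28 and Uhrf1 lists of both lines and the V6.5 lists, overlapped 54 members (9.05%) and 4.44% of other shared peaks. The rule favours wide peaks, and these shares were not compared at equal width. Of the 54, 14 belonged to the clusters on chromosomes 9 and 2. The other 40 had a median width of 6458 bp and median fold enrichments of 10.1 in TKOL and 8.81 in DKO0. IAP sequence was held by 31 of these 40, and 29 were in all 6 Trim28 replicate lists. At the other end, 307 members (51.4%) were in none of the 6 lists, against 47.8% of other shared peaks. These had a median width of 381 bp and median fold enrichments of 2.87 and 2.91, and 145 of them were in none of the 4 H3K9me3 replicate lists of TKOL and DKO0 either.

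Members with IAP sequence carried the other marks at most sites. Of the 38, 36 were overlapped by Trim28 in each line (94.7%), 32 by Uhrf1 in each line (84.2%), and 36 and 35 by the V6.5 H3K9me3 lists. Other shared peaks with IAP sequence had 82.3% and 81.7% for Trim28 in TKOL and DKO0 and 70.4% and 66.3% for Uhrf1. These shares were not compared at equal width. Among the 559 members without IAP sequence the Trim28 shares were 31.5% and 19.3% and the Uhrf1 shares 16.1% and 15.6%.

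In members, overlap rose with width in each of the 6 lists. Trim28 of TKOL overlapped 20.9% of members up to 500 bp, 33.7% of those from 500 to 2000 bp, 67.2% of those from 2000 to 5000 bp and 87.2% of those above. In other shared peaks of the same widths the shares were 22.1%, 44.4%, 80.7% and 96.0%. Uhrf1 of TKOL overlapped 8.99%, 17.8%, 40.6% and 72.3% of members, against 5.72%, 10.9%, 33.4% and 83.2% of other shared peaks. In these TKOL lists Trim28 was thus less frequent in members than in other shared peaks in each width class, and Uhrf1 was more frequent up to 5000 bp. V6.5 H3K9me3 of replicate 1 overlapped 15.1% of members up to 500 bp and 10.8% of other shared peaks, but 72.3% and 90.7% of those above 5000 bp.

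Over the 6 single-replicate Uhrf1 lists, the share of members exceeded that of other shared peaks in 6 of 6. The shares of members were 16.8% and 19.1% in V6.5, 13.2% and 12.1% in TKOL and 11.2% and 9.21% in DKO0. Those of other shared peaks were 9.82% and 13.4%, 8.52% and 4.86%, and 6.20% and 4.66%. The mean difference was 5.69 ± 1.14 percentage points (SD, n = 6 lists), with p = 0.0312 in the 2-sided exact sign-flip permutation test, the smallest p that 6 lists allow, and an adjusted p of 0.0312 over 4 such tests. With the other shared peaks weighted to the width classes of the members the difference was 2.61 points, and without the clusters on chromosomes 9 and 2 it was 3.25 points. With at least 50% of the peak covered it was 1.50 points, and among peaks in both replicate lists of TKOL and DKO0 it was 21.7 points. The exact p was 0.0312 in each of these 4. The comparison within replicate lists rested on 111 members and was not repeated at equal width or without the clusters. By the rule members lie at gene starts and other shared peaks do not. The part of promoter position or of the Uhrf1 assay in this difference was not tested.

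For Trim28 the corresponding difference depended on the peaks compared. The shares of members were 18.1% and 13.4% in V6.5, 27.5% and 16.1% in TKOL and 17.1% and 14.7% in DKO0, against 16.4% and 9.71%, 22.9% and 12.5%, and 13.6% and 12.5% of other shared peaks. The mean difference was 3.23 ± 1.04 points (SD, n = 6 lists), positive in 6 of 6, with an exact sign-flip p of 0.0312 (adjusted p = 0.0312). Weighting to the members' widths turned it to -1.05 points (exact p = 0.0625), and leaving out the 29 peaks of the clusters turned it to -0.314 points (exact p = 0.406). Among peaks found in both replicate lists of TKOL and DKO0 it was 15.1 points, and with at least 50% of the peak covered it was 2.76 points, both with an exact p of 0.0312. The first of these rested on 111 members, and neither was repeated at equal width or without the clusters. In the pooled lists, which were called with input samples, the Trim28 share of members was below that of other shared peaks, by more than the counting interval in DKO0 but not in TKOL. The V6.5 H3K9me3 difference of 3.04 points over 2 lists, which has no test, likewise became -2.00 and -0.365 points.

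**Figure D5:**
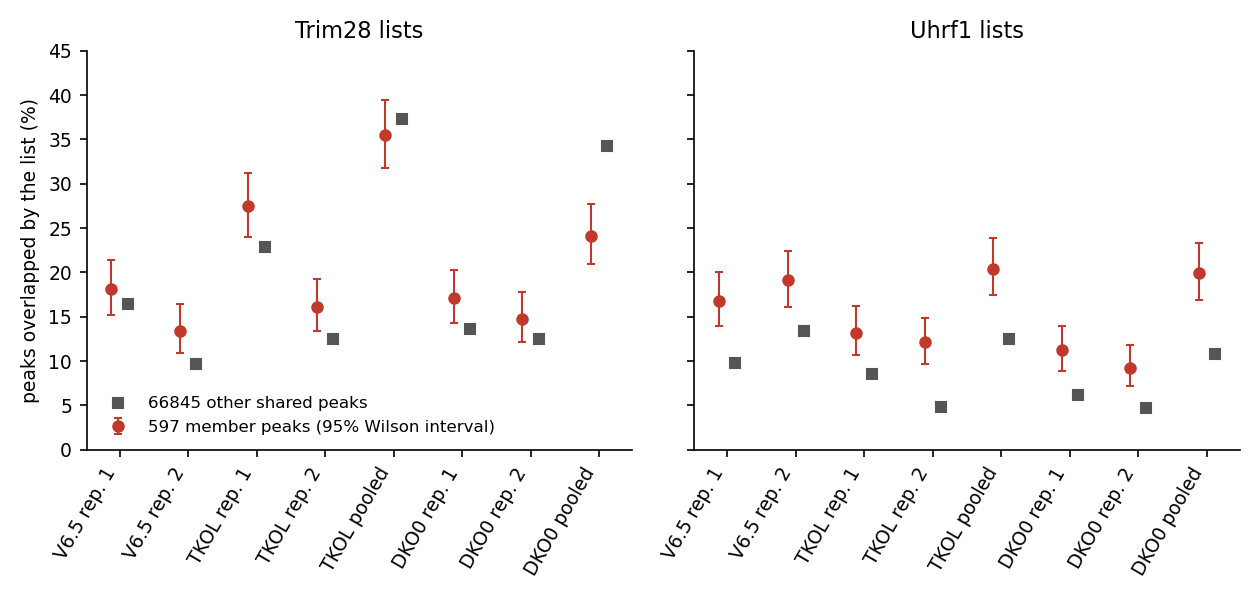
Share of peaks (%) overlapped by each Trim28 and Uhrf1 list, for the 597 members (circles, 95% Wilson interval) and the 66845 other shared peaks (squares). Uhrf1 shares of members lie above those of other shared peaks in every list, whereas for Trim28 they do so in the 6 replicate lists and lie below in both pooled lists.

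Between lines, the Trim28 lists overlapped and the Uhrf1 lists did not, and neither difference could be called. Trim28 overlapped 21.8% ± 8.05 of members in TKOL and 15.9% ± 1.66 in DKO0 (SD, n = 2 lists each), a difference of -5.86 points with an exact permutation p of 0.667. TKOL replicate 1 stood apart at 27.5%, and without it the difference was -0.168 points. Uhrf1 overlapped 12.6% ± 0.829 in TKOL and 10.2% ± 1.42 in DKO0, a difference of -2.43 points with an exact permutation p of 0.333. With 2 lists per line 0.333 is the smallest p the test can give, so a difference of this size could not pass the threshold of 0.05. The number of peaks in these lists also differed, from 15995 to 31921 for Trim28 and from 11440 to 17444 for Uhrf1. With an equal number of peaks in each list the differences were -2.18 points for Trim28 (exact permutation p = 0.667) and -0.503 points for Uhrf1 (exact permutation p = 1.00).

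The lists of both marks were also compared over whole promoter windows. In the pooled lists Trim28 overlapped 34.7% of the 478 member promoters in TKOL and 17.4% in DKO0, against 6.00% and 2.34% of all coding promoters. Uhrf1 overlapped 15.7% and 21.3%, against 2.75% and 9.26% of all coding promoters. Over the 6 replicate lists the member promoters exceeded the other coding promoters by 10.8 ± 4.84 points for Trim28 and by 9.69 ± 3.01 points for Uhrf1 (SD, n = 6 lists each). Both were higher in 6 of 6 lists, with an exact sign-flip p of 0.0312 each (adjusted p = 0.0312). With only Trim28 or Uhrf1 peaks at a -log10 q of 5 or more the differences were 4.57 and 3.53 points, and without the clusters 8.13 and 7.43 points, each with an exact p of 0.0312. Member promoters were chosen for an H3K9me3 peak and held more multi-copy words, with a median of 6.65% against 0.254%. The differences were not compared at equal repeat content or without the windows that hold IAP sequence.

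A pair of libraries covered more coding promoters than the rest. TKOL replicate 1 of Trim28 had a peak at 5.01% of all coding promoters, against 0.728% to 2.28% in the other 5 Trim28 lists. DKO0 replicate 1 of Uhrf1 had one at 4.70%, against 0.880% to 3.25% in the other 5 Uhrf1 lists. Without TKOL replicate 1 the Trim28 excess at member promoters was 8.91 points, and without DKO0 replicate 1 the Uhrf1 excess was 10.2 points.

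Replicate support for the members' own H3K9me3 was uneven. The TKOL replicate lists overlapped 54.8% and 24.1% of members and the DKO0 replicate lists 63.0% and 30.0%. All 4 lists overlapped 111 members (18.6%), and none of the 4 overlapped 181 (30.3%), against 16.1% and 37.2% of other shared peaks. Of the 54 members in all 6 other lists 51 were in all 4 replicate lists, and of the 307 in none of the other lists 3 were. A -log10 q-value of at least 5 in both pooled lists was reached by 132 members.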

How the data were processed

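Peaks of H3K9me3, Trim28 and Uhrf1 from TKOL, DKO0 and V6.5 ESCs were analysed, in 18 single-replicate and 6 pooled lists. The authors aligned reads to mm9 with BWA, removed duplicates with GATK, called peaks with MACS2, and merged replicates on read level with input samples for the pooled lists. The input samples of the series are titled as Uhrf1 inputs. The deposited lists hold each peak's fold enrichment (a ratio) and the -log10 of the p-value and q-value, without read counts, so depth is unknown. Overlap was at least 1 bp, computed in Python 3.11.15, tested on simulated data and checked with bedtools 2.31.1, and 0 of 24 lists differed. Gene starts came from GENCODE vM1. Sequence was read from mm9 and matched with blastn 2.17.0. Shares were compared by exact permutation over lists. The members and gene lists were chosen with earlier results of these data known. Named genes were the 10 widest, the 10 most enriched, the 10 most enriched in all lists, members of the gene lists and those nearest the window limit. Alternatives are given in the closing section, and other data types of the series were not used here. The hairpin table was not used.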

Additional observations from a re-analysis of the deposited data

How the results depend on the processing

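The number of members was 597 and became 336 with windows of 500 bp, 1146 with 2000 bp, 132 at a threshold of 5 on the -log10 q scale of both pooled lists, and 111 when all replicate lists were required. Applied to the lists of 1 replicate number alone the rule gave between 92 and 282. Trim28 at members minus other shared peaks turned to -1.05 points with width weighting and to -0.314 without the clusters on chromosomes 9 and 2, and fell short of the threshold without IAP peaks, at 1.23 points (exact p = 0.0938). The V6.5 difference turned to -2.00 and -0.365 points under the first 2 of these, and moved to 1.25 without IAP peaks and to 7.05 among peaks in all replicate lists. Uhrf1 in DKO0 minus TKOL turned to 0.0838 points when 50% of the member had to be covered. Between lines the Trim28 difference of -5.86 points was -1.51 at 50% coverage, -1.17 with stricter Trim28 peaks and -2.18 with an equal number of peaks in each list, and the Uhrf1 difference of -2.43 was -0.921 and -0.503 under the last 2. Leaving out the clusters, the IAP peaks or any single list was chosen after seeing the data.

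With a list or a replicate number left out, the smallest exact p of the tests over lists is 0.0625 or 0.250, so none could pass the threshold. The differences then ran from 2.95 to 3.52 points for Trim28 and from 5.39 to 5.91 for Uhrf1 at members, from 7.88 to 13.7 and from 8.75 to 10.2 at promoters, from 2.61 to 3.47 for V6.5, and from -11.6 to -0.168 for Trim28 and from -3.43 to -1.42 for Uhrf1 between lines. With a replicate block, an exact sign-flip test of 2 pairs, the values were -5.86 and -2.43 points with an exact p of 0.500 each, the smallest possible. The replicate numbers are only names here, so nothing pairs the lists. Of 89 alternative values, 43 counted as unchanged. A tested value had to keep its direction and its side of the threshold. A count had to stay near the reported one, and a V6.5 difference within the SD of its lists. Other values without a test had to keep only their direction. The causes of the other changes were not tested. The lists hold no read counts, so a missing peak may reflect depth.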

Other observations

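The pooled TKOL list held 289 further peaks in coding promoter windows that overlapped no DKO0 peak. The share of TKOL promoter peaks with a DKO0 peak was 67.4%, and that of TKOL peaks elsewhere was 64.4%. By gene, 360 genes had 1 member, 92 had 2, 25 had 3, and Rex2, chosen here after its values were seen, had 4. The 4 peaks at Rex2 had TKOL fold enrichments of 2.16 to 3.27, and 0% of their words were multi-copy. Their median word still had 6 or 7 copies, below the cut-off, so these peaks did not lie in single-copy sequence. Uhrf1 in both pooled lists with Trim28 in neither was found at 11 members (1.84%) and at 1.28% of other shared peaks. Trim28 in both with Uhrf1 in neither was found at 45 members (7.54%) and at 18.2% of other shared peaks. Neither difference was tested.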
